A study of Mus musculus with 2 samples.

Results

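The early response genes described here are 10 of the 20660 named genes on the array: the zinc-finger transcription factors Egr1, Egr2 and Egr3, the nuclear receptors Nr4a1, Nr4a2 and Nr4a3, the phosphatases Dusp1 and Dusp2, the RNA-decay factor Zfp36, and Ier2. They were chosen by name, as the genes to which the RefSeq accessions of 11 non-control probes belong. The cells were bone marrow-derived macrophages, grown from the femoral marrow of male mice that were either wild-type for calpain-6 (Capn6-Wt) or deficient in it (Capn6-Ko), and each genotype was 1 array of pooled cells. The cultures of both genotypes held TNF-α at 10 ng/mL, M-CSF at 50 ng/mL and 10% serum, and the labels disagree on the day of culture, which is 3 in the description and 4 in the source name. The design text gives 4 pooled mice without saying whether this is per genotype. Neither the way in which calpain-6 was removed nor the time between the last change of medium and the harvest is known from the sources used here.

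Early response genes are transcribed within minutes of a signal, from promoters that need no new protein to be read. Growth factors and cytokines reach them through the MAP kinases, which act on serum response factor with its ETS partners and on CREB. EGR proteins and NR4A receptors then drive later genes, and in myeloid cells Egr1 and Egr2 are known for roles in macrophage differentiation and Nr4a1 for one in monocytes. The feedback genes end the response: Dusp1 and Dusp2 encode nuclear phosphatases that switch MAP kinases off, and Zfp36 encodes tristetraprolin, which binds AU-rich elements and marks mRNAs such as that of TNF for decay. Ier2 encodes a small nuclear protein and belongs to neither role.

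The promoters of these genes are printed because they carry the elements through which the family is known to respond. RefSeq windows (GRCm38.p6) of 7 of the 10 members were searched. Egr3 and Ier2 had no window, and Egr1 was left out of the search and is not reported here. Shown are the 250 bases before 1 annotated start site of 5 members measured on both arrays, 5′ to 3′ along the gene. Capitals mark the CArG box of serum response factor, the CRE core TGACG, read on both strands and also part of the full CRE TGACGTCA, and the EGR site (GCGGGGGCG or GCGTGGGCG). RefSeq lists 5 windows for Egr2, and the one printed overlaps 2 others. Dusp2, also measured and searched, is not printed, and of the marked elements its window held only the EGR site.
Egr2 promoter, chr10:67537619-67537868, forward strand: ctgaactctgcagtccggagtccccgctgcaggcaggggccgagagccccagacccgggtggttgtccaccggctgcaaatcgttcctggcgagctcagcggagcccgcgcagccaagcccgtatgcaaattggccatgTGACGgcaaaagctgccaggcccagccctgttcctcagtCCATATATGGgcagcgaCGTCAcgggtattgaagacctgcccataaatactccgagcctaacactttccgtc
Nr4a1 promoter, chr15:101266596-101266845, forward strand: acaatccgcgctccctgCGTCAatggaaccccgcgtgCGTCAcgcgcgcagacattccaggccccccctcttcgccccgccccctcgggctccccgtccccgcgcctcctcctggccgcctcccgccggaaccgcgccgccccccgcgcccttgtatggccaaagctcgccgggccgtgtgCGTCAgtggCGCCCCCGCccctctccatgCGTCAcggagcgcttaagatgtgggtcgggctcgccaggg
Nr4a2 promoter, chr2:57124004-57124253, reverse strand: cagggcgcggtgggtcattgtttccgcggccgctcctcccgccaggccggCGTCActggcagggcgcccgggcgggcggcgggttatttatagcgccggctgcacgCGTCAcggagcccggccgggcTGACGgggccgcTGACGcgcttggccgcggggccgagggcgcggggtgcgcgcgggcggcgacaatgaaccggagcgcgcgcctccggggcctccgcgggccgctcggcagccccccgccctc
Dusp1 promoter, chr17:26508473-26508722, reverse strand: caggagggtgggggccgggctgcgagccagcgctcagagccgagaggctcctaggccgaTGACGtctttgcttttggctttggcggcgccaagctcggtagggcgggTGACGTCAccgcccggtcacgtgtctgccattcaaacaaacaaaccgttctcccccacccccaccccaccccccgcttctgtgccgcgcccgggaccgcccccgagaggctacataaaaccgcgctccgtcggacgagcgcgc
Zfp36 promoter, chr7:28379229-28379478, reverse strand: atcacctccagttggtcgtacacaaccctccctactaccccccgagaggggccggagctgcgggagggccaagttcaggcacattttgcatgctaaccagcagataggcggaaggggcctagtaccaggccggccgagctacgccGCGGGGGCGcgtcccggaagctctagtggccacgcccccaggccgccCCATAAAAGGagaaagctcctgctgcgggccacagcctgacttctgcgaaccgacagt

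The CArG box was present in Egr2 windows and in that of Zfp36, where it lies from -58 to -49 relative to the start site. Of the 27025 genes with at least 1 window of 250 bases, 1.62% hold it in any of their windows, the way members were counted. Of the 7 members searched, Dusp1 had the full CRE, which 1.77% of genes hold. At least 1 CRE core was found in Nr4a1, Nr4a2, Nr4a3, Egr2 and Dusp1, against 19.8% of all genes, and Nr4a1, Nr4a2 and Nr4a3 had 4 each. The EGR site stood in Nr4a1, Zfp36 and Dusp2, against 3.47% of genes. No match was found in the 7 members searched, which leave out Egr1, for the NR4A binding element NBRE (AAAGGTCA, in 1.55% of genes). The same held for the AP-1 site (TGANTCA, 7.82%) and an NF-kB site (GGGANTTTCC, 0.414%). The ETS core CCGGAA was found in Egr2, Nr4a1 and Zfp36, against 13.6% of genes. For Egr2 it lay in a window other than the one printed. These matches describe letters in the sequence, and no occupancy was measured.

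Both arrays lay on 1 slide and were scanned together. The share of the 59305 non-control spots that was well above background was 51.7% for Capn6-Wt and 52.8% for Capn6-Ko, and no spot was saturated. The single probe of the targeted gene, Capn6, was not well above background on either array (signals of 3.93 and 8.65), so it does not check the labels. All 7 macrophage markers matched to a probe, of a list of 8, were well above background, with Csf1r, the M-CSF receptor, and Adgre1 among them, and so were all 7 neutrophil markers matched to a probe, S100a8 (3579 and 3494), S100a9 (2779 and 2653) and Elane (1736 and 1884) among them. Of the endothelial, mast cell, dendritic and lymphocyte lists 2 of 4, 1 of 4, 1 of 4 and 3 of 7 markers were measured. Signals are processed intensities on a linear scale. A log2 difference is Capn6-Ko minus Capn6-Wt after each array was set to its 75th percentile, a step that adds 0.018 to every difference. With 1 array per group there is no test and no p-value; the ± is an SD from the spread between replicate spots of the same probe, and it leaves out mice, culture, RNA extraction and labelling.

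Of the 8 members measured on both arrays 7 were higher in Capn6-Ko, all by small amounts. Their median log2 difference was 0.17, beside -0.0056 over all 12875 measured genes, of which 47.8% were higher. The highest was Egr2, at 1.16-fold, and Ier2 was at 0.99-fold. Egr1, Egr2, Nr4a2, Dusp1 and Zfp36, 5 members, were at least 1.1-fold higher, a size that 12.4% of all measured genes reached. Of these 5 members Egr2 lies above the median level of the measured genes, where 6.66% of genes reached it, and the other 4 lie below, where 18.1% did. No member was past a log2 difference of 0.32, the larger size counted here, which 2.64% of genes passed upward and 5.52% downward. Of the 8 differences 6 were larger than their spot-to-spot SD and 1, that of Egr2, was larger than 2 such SDs. The share of all measured genes past these SDs was not counted, so 6 of 8 is not a trait of the members. In related lists, described below, 8 of 9 AP-1 genes and 12 of 24 further immediate early genes were past 1 spot-to-spot SD. Of the EGR partners and serum response factor genes 1 of 9 was. The scanner software's own error estimate is wider, about 10.0% of the signal of a bright spot. By it, only Egr2 and Nr4a2 differed by more than 1 SD, and both narrowly. Egr2 was at 0.216 against an SD of 0.204. Nr4a2, a mean of 2 probes, was at 0.194 against 0.193.

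**Figure D1:**
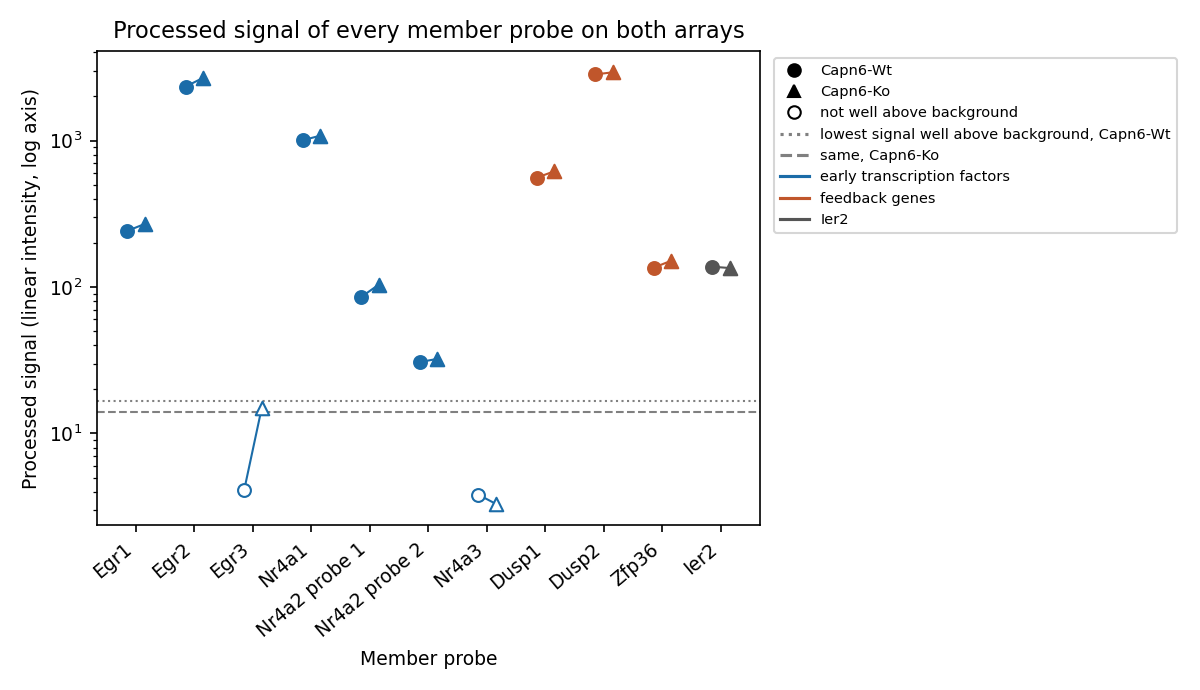
Processed signal (linear intensity on a log axis) of each of the 11 member probes on the Capn6-Wt array (circles) and the Capn6-Ko array (triangles), with the lowest signal well above background on each array as grey lines. Open symbols, for Egr3 and Nr4a3, were not well above background; levels of different probes are not comparable.

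Among the EGR factors, the Egr1 signal was 241 for Capn6-Wt and 269 for Capn6-Ko. The log2 difference of Egr1 was 0.18 ± 0.11, or 1.13-fold, and 8.55% of measured genes were at least as high. Egr2 had signals of 2336 and 2680. The Egr2 difference of 0.22 ± 0.083 was reached by 6.21% of all measured genes and by 2.39% of those above the median level, to which Egr2 belongs. Both EGR factors were brighter on the Capn6-Ko array, each on the evidence of 1 spot per array. Egr3, the third member of the family, had signals of 4.10 and 14.9 and was not well above background on either array, so no fold is given. The Capn6-Ko spot of Egr3 lay just over 14.03, the lowest signal of any spot well above background on that array, although the software did not call it so.

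Of the NR4A receptors, Nr4a1 was at 1005 in Capn6-Wt and 1079 in Capn6-Ko. This is a log2 difference of 0.12 ± 0.077, which 14.6% of genes reached. Nr4a2 has a brighter probe, at 85.4 and 104, and a dimmer one, at 30.7 and 32.3. The brighter probe differed by 0.30 ± 0.17 and the dimmer by 0.091 ± 0.32, so the probes share a direction and the gene value was 0.19 ± 0.18. Nr4a3 was read by 10 spots per array, none well above background. Its signals ran from 3.34 to 4.31 in Capn6-Wt and from 2.85 to 3.77 in Capn6-Ko. With the floor of the processed signal so near, these values give no fold, and of the NR4A family only Nr4a1 and Nr4a2 had a measured level.

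Dusp1, a phosphatase of p38 and JNK, was at 557 in Capn6-Wt and at 616 in the Capn6-Ko culture. It differed by 0.16 ± 0.092, or 1.12-fold. Dusp2, which acts on ERK among others, was at 2827 and 2922. Its difference was 0.066 ± 0.083, less than its spot-to-spot SD, and 25.6% of measured genes were at least as high. Zfp36 was at 135 and 151, with a difference of 0.18 ± 0.17. The 3 feedback genes were all brighter on the Capn6-Ko array, and only Dusp1 and Zfp36 by more than their spot-to-spot SD. Ier2, at 138 and 135, differed by -0.012 ± 0.17, close to the median of all genes.

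**Figure D2:**
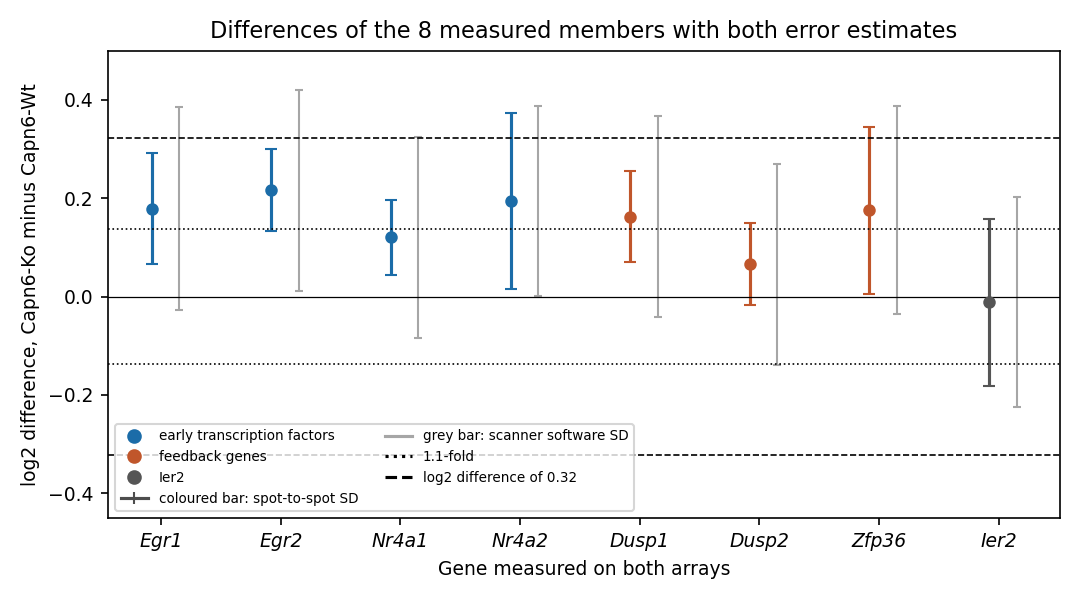
log2 difference, Capn6-Ko minus Capn6-Wt, of the 8 measured members, with the spot-to-spot SD (coloured bars) and the SD from the scanner software's error estimate (grey bars); dotted lines mark 1.1-fold and dashed lines a log2 difference of 0.32. Of the points 7 lie above 0 and none reaches 0.32, and the grey bars of Egr2 and Nr4a2 stay just above 0.

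Early transcription factors and feedback genes were compared by their medians. The 4 measured factors had a median difference of 0.19, from 0.12 to 0.22, and the 3 feedback genes one of 0.16, from 0.066 to 0.18. The factors were ahead by 0.023, within the spot-to-spot SD of 0.092 for a difference of the group means. Of the 12 pairs of a factor with a feedback gene, 10 had the factor higher, but 1 pair differed by more than its combined SD and 0 by more than 2 such SDs. The ranges of the groups overlapped, and the order of the medians is not resolved by these spots. Ier2 was below each of the other 7 members, and the pair with Egr2 was the 1 of 7 beyond its combined SD.

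**Figure D3:**
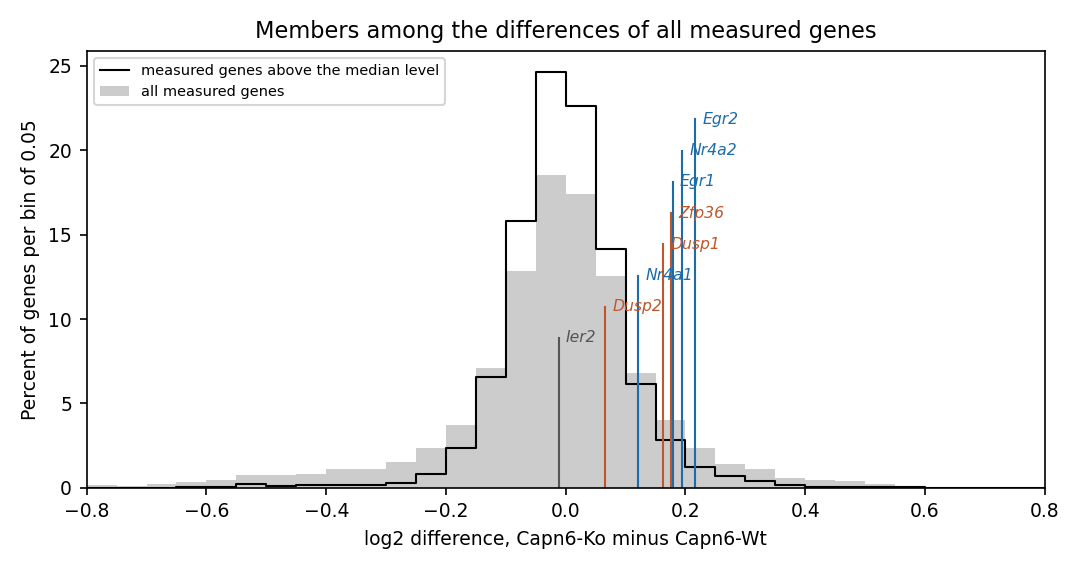
Percent of measured genes per bin of 0.05 in the log2 difference, for all 12875 genes (grey) and for the 6437 above the median level (black line), with the 8 measured members as vertical lines whose heights carry no value. Ier2 sits at the centre and the other members to its right, within the body of the distribution.

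Markers of several cell types also differed between the 2 arrays, those of macrophages mostly upward and those of stromal cells mostly downward. Macrophage markers had a median of 0.19, with 5 of 7 higher, against 47.8% of all measured genes. Csf1r (0.20 ± 0.046) and Cd14 (0.36 ± 0.072) were among the higher ones. Mertk (-0.034 ± 0.083) and Lyz2 (-0.0078 ± 0.083) were the 2 lower. The summed signal of the macrophage markers was 239322 in Capn6-Wt and 245964 in Capn6-Ko, most of it from Lyz2 (167573 and 164586). Of the 9 stromal and fibroblast markers measured 8 were lower, against 52.2% of all genes, and 7 of these were lower by 0.32 or more. Their median was -0.50 and their summed signal 30533 and 20183; of the list of 10, Lum was not well above background. Among megakaryocyte and platelet markers 4 of 5 were higher, the median was 0.13 and the sums were 11801 and 12973. Neutrophil markers had a median of -0.016, with 3 of 7 higher. In pooled cultures fewer cells of a type and less RNA per cell cannot be told apart. The part of these shifts in the members' values was not tested.

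The genes around the members in the same pathway did not share one direction. The 9 wider lists held 106 genes measured on both arrays, of 120 on the array. Of these, 6 were higher by 0.32 or more on the log2 scale (5.66%, against 2.64% of all genes) and 7 were lower by as much (6.60%, against 5.52%). Lists of regulators upstream of the EGR and NR4A promoters had small medians, though single genes differed. The list of EGR partners and serum response factor genes had a median of -0.037, with 3 of 9 higher and none past 1.1-fold in either direction, where 12.4% of all genes were past it upward and 15.1% downward. Srf itself was at 0.081 ± 0.060 and the EGR co-repressor Nab2 at 0.062 ± 0.092, while the ETS partner Elk1 was at -0.10 ± 0.16 and the SRF co-activator Mrtfb at -0.10 ± 0.12. Among upstream M-CSF, TNF and MAP kinase genes 12 of 21 were higher, against 47.8% of all measured genes, with a median of 0.027. Of these 21 genes 10 differed by more than their spot-to-spot SD. Map2k6, a p38 activator, was furthest up at 0.42 ± 0.17 (59.6 and 78.9), followed by Csf1r.

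Other early response genes varied in both directions. Of 24 further immediate early genes 11 were higher, against 47.8% of all measured genes, and their median was -0.010. Gem, a small GTPase, was at 0.42 ± 0.32 on a dim probe, and Trib1, a pseudokinase, at 0.20 ± 0.065. Ier3, a survival gene of the early response, was at -0.44 ± 0.092 (704 and 513), and Maff, a small MAF factor, at -0.25 ± 0.092. AP-1 genes had 5 of 9 higher with a median of 0.11: Fos (0.36 ± 0.026) and Batf3 (0.29 ± 0.092) stood at one end, and Fosb (-0.66 ± 0.17) and Fosl1 (-0.54 ± 0.17) at the other. Fosb and Fosl1, which belong to the same early response, were lower where 7 of the 8 measured members were higher.

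The remaining feedback genes were split in some lists and mostly higher in that of NF-kB feedback. Of the other MAP kinase phosphatases 3 of 7 measured were higher, with a median of -0.047. Dusp7 (0.19 ± 0.092) and Dusp6 (0.087 ± 0.083), both phosphatases of ERK, were furthest up. Dusp10 was at -0.79 ± 0.32, with signals of 38.1 and 21.7 near the background, and Dusp9 at -0.13 ± 0.11. Sprouty and Spred genes, inhibitors of the Ras pathway, had 3 of 7 members measured, with Spred1 at 0.22 ± 0.11, Spred2 at 0.084 ± 0.17 and Spry1 at -0.62 ± 0.17. Of the NF-kB feedback genes 7 of 8 were higher, against 47.8% of all measured genes, and their median was 0.11. Tnip3, an inhibitor of NF-kB signalling, was at 0.72 ± 0.17, with both of its probes higher, and Nfkbie at 0.23 ± 0.077. Nfkbia, which encodes IκBα, was at 0.0076 ± 0.083, and Ier3, also in this list, was its 1 lower member.

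RNA-decay regulators related to Zfp36 had 12 of 19 higher, against 47.8% of all measured genes, none past 0.32, and a median of 0.049. Zc3h12c, of the Regnase family, was at 0.28 ± 0.17 and the deadenylase Cnot8 at 0.17 ± 0.083, while the deadenylase Parn was at -0.12 ± 0.092 and Hnrnpd, an AU-rich element binding protein, at -0.090 ± 0.072. The paralogs Zfp36l1 (-0.054 ± 0.083) and Zfp36l2 (-0.027 ± 0.083) were within their spot-to-spot SD. Of 14 mRNAs known as tristetraprolin targets 8 were measured, 5 of them higher, with a median of 0.040. Il1b was at 0.62 ± 0.11 (24.3 in Capn6-Wt and 37.1 in Capn6-Ko) and Il10 at 0.50 ± 0.10 (25.7 and 36.1), both on dim probes. Ptgs2, which encodes cyclooxygenase-2, was at -0.50 ± 0.036 (193 and 135) and the chemokine gene Ccl2 at -0.42 ± 0.023 (5469 and 4023). Tnf, the best-known target, was at 745 and 792, a difference of 0.11 ± 0.029. Targets of 1 decay factor stood at both ends of this list, and mRNA decay itself was not measured.

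**Figure D4:**
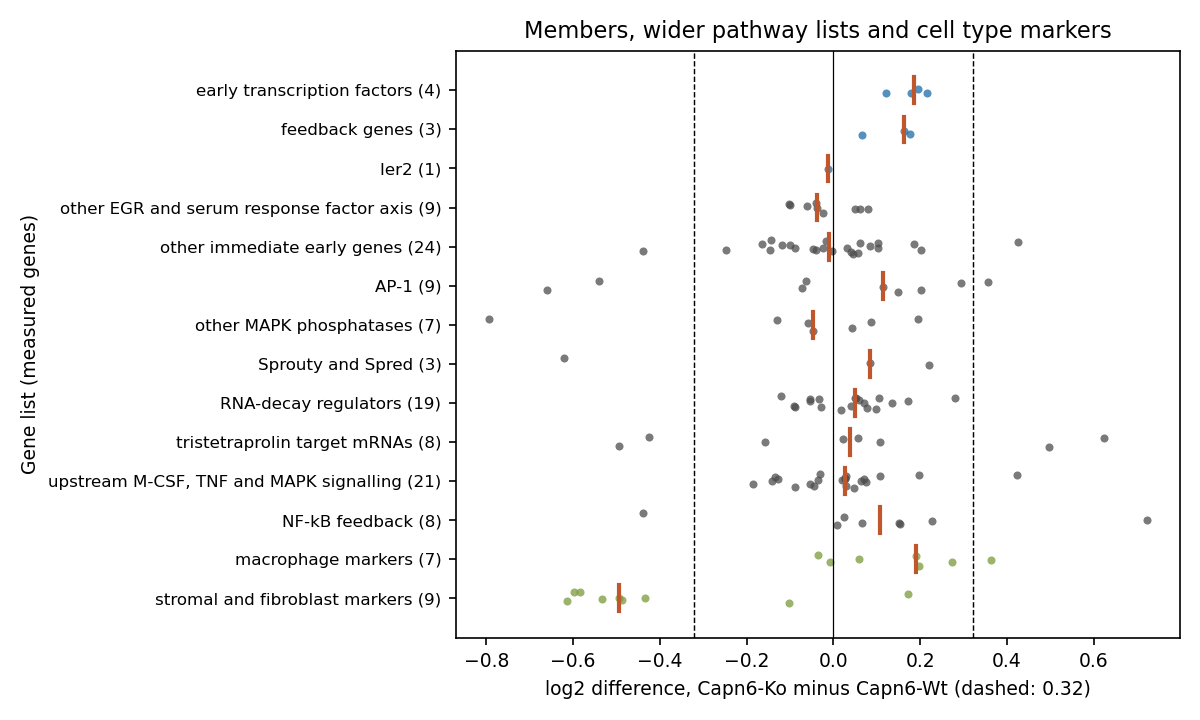
log2 difference, Capn6-Ko minus Capn6-Wt, of each measured gene (points) in the member groups, the 9 wider lists, and the macrophage and stromal marker lists, with the list median as an orange bar and log2 differences of 0.32 as dashed lines; the number of measured genes is in parentheses. The early transcription factors, feedback genes and macrophage markers have medians of 0.19, 0.16 and 0.19, and the stromal markers one of -0.50.

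Across 10 settings of the arrays the members kept their signs wherever they had a measured value. Several of these settings cannot change the value of a member with 1 probe. Egr2 ran from 0.20 to 0.24 and Egr1 from 0.16 to 0.18. Nr4a2 moved most, from 0.083 after another background correction (normexp) to 0.30 with its brighter probe alone. After normexp Zfp36 was at 0.10 and Dusp1 at 0.11, and 2 members instead of 5 were at least 1.1-fold higher. Ier2 ran from -0.066 to -0.0015.

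**Figure D5:**
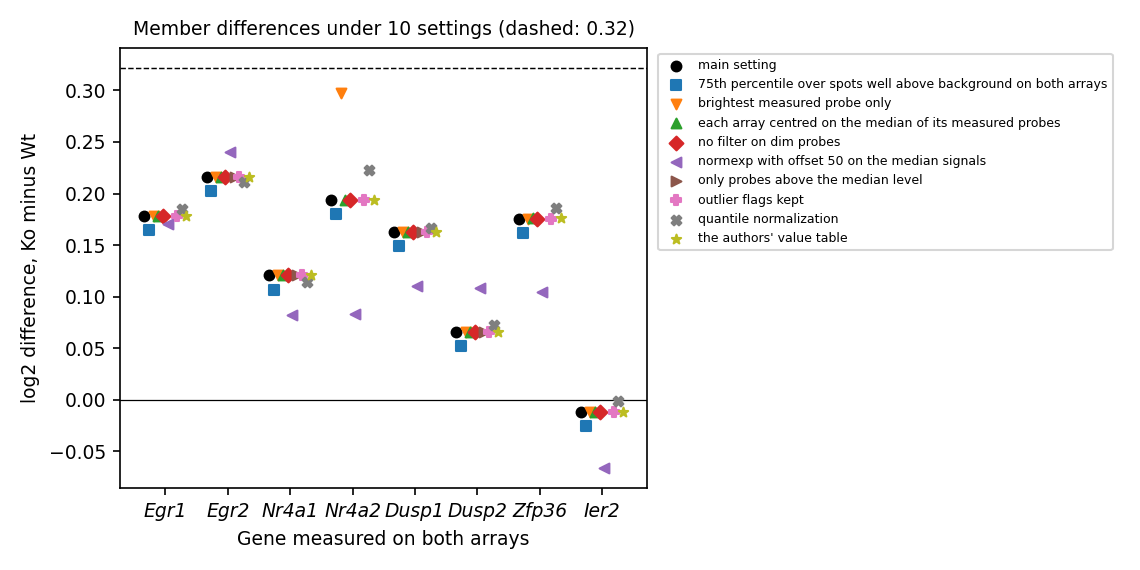
log2 difference, Capn6-Ko minus Capn6-Wt, of the 8 measured members under the main setting (black circles) and 9 others, with 0.32 as a dashed line; a member without a probe that passes a setting has no point. No point reaches the line, and the normexp points of Nr4a1, Nr4a2, Dusp1, Zfp36 and Ier2 lie lowest for their gene.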

How the data were processed

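RNA of 1 pooled culture per genotype was hybridised to 1-colour (Cy3) arrays. Per the file headers, the authors read the scans with Agilent Feature Extraction (version 10.10.1.1), and the deposited values are spot intensities, linear, with background subtracted within the array and no scaling between arrays. The authors' value table held these intensities multiplied by a constant, which was 2.39 for the Capn6-Wt array and 2.42 for the other. The design is annotated on mm9, per the file headers.

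Control spots and spots called outliers by the software (161 on the Capn6-Wt array, 136 on the Capn6-Ko array) were left out. The log2 signal was set relative to the 75th percentile of all non-control spots, with a mean taken over the spots of each probe. A probe was measured if, on each array, the software called most of its spots well above background. RefSeq accessions named 27232 of 55678 probes through a GRCm38.p6 gene table, and a gene's value is the mean over its measured probes. The spot-to-spot SD came from 263 measured probes with at least 5 spots, in 8 bins of level. The software's SD combines its error estimates of both spots. Probe levels were not compared between genes.

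The members and gene lists were chosen with earlier results of these data known, so their counts and medians are descriptions. Of each wider list the 2 genes furthest up, the 2 furthest down and any past 0.32 on the log2 scale were to be named; others were chosen after their values were seen. The genes furthest down in 1 list are not reported here. The scripts were tested on simulated data. They ran in Python 3.11.15 (numpy 2.4.6, pandas 2.3.3) and R 4.3.3, where limma 3.58.1 gave the quantile and normexp settings. The number of arrays limits the precision.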

Additional observations from a re-analysis of the deposited data

How the results depend on the processing

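Of 122 comparisons of a value with its main setting, 115 moved by less than the spot-to-spot SD or, for counts, by less than 1.5 times. This share is no measure of stability, because several settings cannot change a member with 1 probe. Egr2 stayed at 0.216 with its brightest probe, with no filter on dim probes and with only brighter probes. It also did so with outlier flags kept. The median of the early transcription factors stayed between 0.127 and 0.198 and that of the feedback genes between 0.109 and 0.166, and their difference between 0.0181 and 0.0541. The count of members at least 1.1-fold higher, 5 in the main setting, was 2 after normexp and 2 of the 4 left (Egr2, Nr4a1, Dusp1 and Dusp2) with only probes above the median level of all measured probes, where fewer genes are tested. This median is lower than that of the measured genes, below which Dusp1 lies. Of the wider lists, the genes past 0.32 on the log2 scale were 6 higher and 7 lower in the main setting, 2 and 4 after normexp, 1 and 2 with only probes above the median level, and 8 and 11 with no filter on dim probes. The cause of the normexp values was not tested. The normexp setting used the median spot signals and was chosen after seeing the data, since the files hold no mean signal column. Matching by a gene name column was not run, as the files used here hold none. The median of all genes moved by less than 0.1 under every setting. No paired analysis was possible because each group has 1 array, and no replicate could be left out. Egr3 and Nr4a3 are limited by signal over background.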

Other observations

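In some pathway genes with several probes, the gap between brighter and dimmer ones was larger than the members' median log2 difference of 0.17. In many others the probes lay close together. Btg1, an antiproliferative early gene, had a bright probe at 0.093 (18196 in Capn6-Wt and 19163 in Capn6-Ko) and a dimmer one at -0.38 (565 and 427), so its mean of -0.15 describes neither. Srf had a probe at 0.17 (842 and 935) beside one at -0.0084 (1574 and 1545). For Mrtfb the bright probe was at 0.0099 and the dimmest at -0.40 (32.7 and 24.4), and for Mapk8, which encodes JNK1, 3 dim probes ran from -0.16 to 0.42. By contrast, both probes of Trib1 (0.20 and 0.21) and all 3 of Csf1r (0.16 to 0.22) lay close together. So did those of Nab2 (0.069 and 0.055) and Mapk9 (-0.080 and -0.097), among others. Of the 8 measured members only Nr4a2 had a second probe, so this comparison could not be made for the other 7.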
